A study of Oryza sativa Indica Group with 6 samples.

Results

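The genes described here act in the response to auxin and in its transport, conjugation and synthesis in rice. They were taken by name: a gene entered when its symbol or a synonym was that of an IAA, ARF, SAUR, GH3, PIN or YUCCA gene with a number and when a probe set of the array matched it and no other gene. ADP-ribosylation factors, which share the letters ARF, were to be left out, and none was among the matches. This gave 59 genes of 17905 with such a probe set, which were 26 IAA, 17 ARF, 9 GH3 and 5 PIN genes and the single genes SAUR39 and YUCCA1. Each gene was represented by 1 probe set, the brightest over the 6 arrays. Names follow the RefSeq tables, in which several numbers are shared: ARF4 is also listed as OsARF2, ARF12 as OsARF8, ARF15 as OsETTIN1, ARF23 as OsARF1, PIN6 as OsPIN5a and PIN3A as OsPIN10a.

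The arrays hold total RNA of Basmati rice seedlings, 15 days after germination, from the T-DNA insertion mutant lines OsPE, Osoc and Ossl, all grown under optimal conditions. Each line had 2 arrays, called biological replicates in the series' design. All 3 lines carry a T-DNA insertion and none is untransformed, so each line is compared with the other two and no direction is relative to wild type. What the line names stand for, where the insertions lie, how many plants were pooled and how many independent insertion events a line represents were not stated in the labels. In whole seedlings, fewer cells of a type and less RNA per cell cannot be told apart.

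Auxin is perceived by F-box receptors of the TIR1 family, which bind it together with an Aux/IAA protein, the product of an IAA gene, and mark that protein for breakdown. Aux/IAA proteins repress the auxin response factors (ARFs), which bind DNA at auxin-regulated genes. Many Aux/IAA, SAUR and GH3 genes are themselves induced by auxin within a short time. GH3 enzymes join amino acids to auxin or jasmonate, PIN proteins carry auxin out of cells or into the endoplasmic reticulum, and YUCCA enzymes make auxin from indole-3-pyruvate. In seedlings this system is known for its part in root formation, tropisms and leaf growth.

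Signals are on the linear scale of the deposited table. Across all probe sets tested, the log2 signals of the arrays within a line had correlations of 0.972 to 0.976, and arrays from different lines had correlations of 0.962 to 0.969. The 40th percentile of an array, used here as the limit of low signals, lay between 22.5 and 26. Of 3 green-leaf markers, all lay above it on every array, with mean signals from 28820.8 to 53561.6, and their sum per array was 115284.7 to 116628.5 in OsPE, 107733.7 to 113619.2 in Osoc and 114413.9 to 132989.3 in Ossl. Of 3 root markers LSI1 was above it on every array at a mean of 1536.2, while LSI2 and PHT1;6 were above it on none. The root sums were 1601.2 to 1677.3 in OsPE, 1575.9 to 1590.3 in Osoc and 1427.9 to 1444 in Ossl. Of 6 grain markers 4 were above it on every array and GLUA1 on none, and the grain sums were 4590.8 to 4856.4, 3615.2 to 3684.3 and 4368.4 to 4406.9 in the same order of lines. In Ossl against Osoc the leaf marker CAB2R was 1.18-fold higher and the grain marker GLB1 1.34-fold higher, and GLB1 was 1.31-fold lower in Osoc than in OsPE (adjusted p = 0.0341, 0.00252 and 0.0058). Their part in the auxin results was not tested. The poly-A control RNAs added during handling were dimmer in Ossl: the mean log2 difference from the other lines was -1.19 for their 5′ probe sets and -0.54 for their 3′ probe sets, which was likewise not tested against these results.

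Of the 59 genes, 52 were tested, because their signal exceeded the 40th percentile on at least 2 of the 6 arrays, and 46 exceeded it on all 6. By limma's moderated F test over the 3 lines 15 of the 52 differed (28.8%), beside 14.8% of all 39629 probe sets tested. In Osoc against OsPE 3 auxin genes were higher and 4 lower (13.5% of 52), beside 7.46% of all probe sets, of which 3.61% were higher and 3.85% lower. In Ossl against OsPE 9 were higher and 1 lower (19.2%), beside 7.92% of all probe sets, 4.11% higher and 3.81% lower. In Ossl against Osoc 9 were higher and 1 lower (19.2%), beside 11.2% of all probe sets, 5.93% higher and 5.27% lower. In all, 17 genes passed in at least 1 comparison (32.7% of 52), beside 16.8% of all probe sets. Of these 10 passed in exactly 2 (19.2%), beside 7.91% of all probe sets, and 0 in all 3, beside 0.931%. Auxin genes were named genes with the brightest probe set chosen, and probe sets chosen that way passed more often in general. Among the 16455 genes represented in the same way and kept by the same filter, 11.9%, 11.7% and 17.1% passed in Osoc against OsPE, Ossl against OsPE and Ossl against Osoc, 22.7% by the F test and 25.7% in at least 1 comparison, 12% in exactly 2 and 1.49% in all 3. Of those above the 40th percentile on all 6 arrays, a stricter filter that 46 of the 52 auxin genes met, the shares were 13.4%, 13% and 19.1%, and 25.3% by the F test. Beside the genes under the same filter, the auxin shares of 13.5%, 19.2% and 19.2% were higher, most in Ossl against OsPE and little in the other comparisons. The auxin shares are of all 52 genes and were not taken again over the 46, so the background under the stricter filter is not matched. Set beside it, they were nearly the same in Osoc against OsPE (13.4%) and Ossl against Osoc (19.1%). They stood above it in Ossl against OsPE (19.2% beside 13%) and by the F test (28.8% beside 25.3%). The differences between these shares were not tested.

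**Figure D1:**
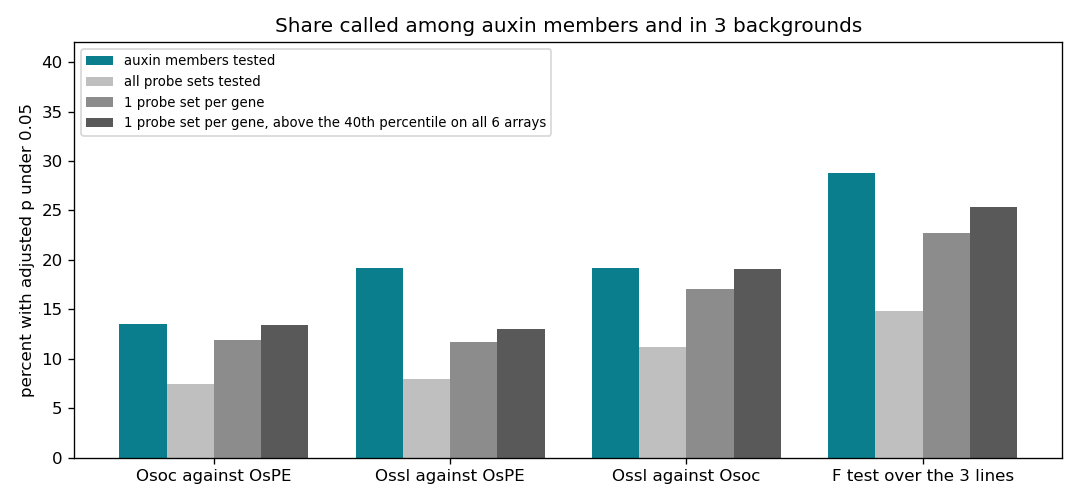
Percent of features with adjusted p under 0.05 (vertical axis) in the 3 comparisons and by the F test, for the 52 auxin genes tested and for 3 backgrounds. The auxin share is 28.8% by the F test, beside 14.8%, 22.7% and 25.3% in the backgrounds.

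These calls rest on a model in which the variance of a probe set follows its signal. Without that trend limma called 0 of the 52 auxin genes in each comparison, with a smallest adjusted p of 0.0749. Of all probe sets tested 28, 382 and 402 passed, which is 0.0707%, 0.964% and 1.01%. At an unadjusted p under 0.05 there were 10, 9 and 15 auxin genes, and the share of all probe sets at that limit is not given here. With the trend, 8 of the 27 calls of auxin genes passed in each of the 6 fits that left out 1 array. Those 8 concern IAA2 and IAA3 in 2 comparisons each, SAUR39 in Ossl against OsPE, and IAA15, ARF12 and ARF17 in Ossl against Osoc.

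**Figure D2:**
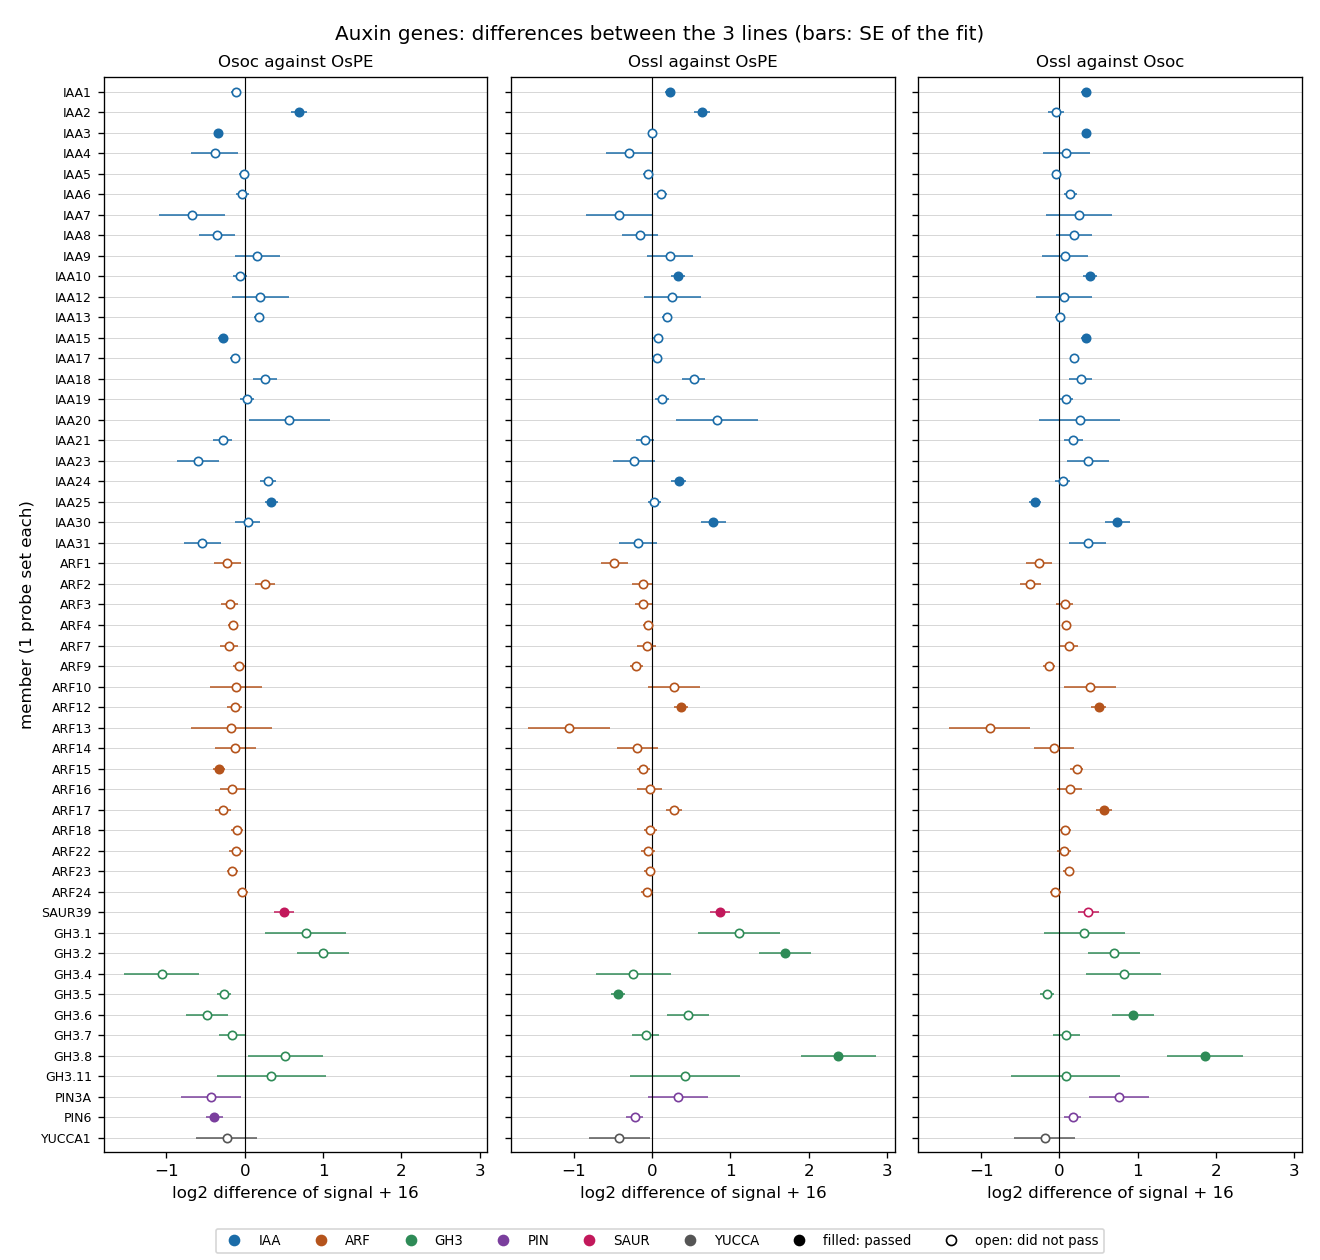
Log2 difference of signal + 16 (horizontal axis) with its SE for each of the 52 tested auxin genes (rows, coloured by family) in the 3 comparisons. Filled points passed at adjusted p under 0.05, and open ones did not. The largest filled value is that of GH3.8 in Ossl against OsPE, at 2.38.

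Among the Aux/IAA repressor genes the lines differed in several ways: IAA2 was low in OsPE, IAA3 and IAA15 were low in Osoc, IAA25 was high in Osoc, and IAA30, IAA10 and IAA1 were high in Ossl. Of 26 IAA genes 23 were tested. In Osoc against OsPE 2 rose and 2 fell, in Ossl against OsPE 5 rose and 0 fell, and in Ossl against Osoc 5 rose and 1 fell. These calls were 17.4%, 21.7% and 26.1% of the 23, beside 11.9%, 11.7% and 17.1% of genes with 1 probe set each. The difference from that background was not tested. The median log2 difference of the 23 genes was -0.03, 0.11 and 0.19 in these comparisons, beside -0.03, -0.02 and 0 over all probe sets. In Ossl against Osoc 20 of the 23 had values above 0, where 50.4% of all probe sets did, and with median centring it was 19.

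IAA2 (LOC4326775) read 916.4 and 942.1 in OsPE, 1381.3 and 1639.4 in Osoc, and 1431.7 and 1490.9 in Ossl. The OsPE arrays lay below all others, and those of Osoc and Ossl overlapped. IAA2 was 1.61-fold higher in Osoc than in OsPE (log2 0.69, SE 0.1, adjusted p = 0.00107) and 1.56-fold higher in Ossl than in OsPE (log2 0.64, SE 0.1, adjusted p = 0.00118). Between Ossl and Osoc the log2 difference was -0.04 (adjusted p = 0.857).

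IAA3 (LOC4325890) read 16998.5 and 17389.8 in OsPE, 13893 and 13361.2 in Osoc, and 16904.9 and 17583.1 in Ossl. Here the Osoc arrays were the low ones, and OsPE and Ossl overlapped. The gene was 1.26-fold lower in Osoc than in OsPE (log2 -0.34, SE 0.05, adjusted p = 0.00194) and 1.27-fold higher in Ossl than in Osoc (adjusted p = 0.00112). Its dimmer probe set, at a mean of 80.4, did not pass. The log2 differences were -1.14 in Osoc against OsPE, 0.48 in Ossl against Osoc and -0.66 in Ossl against OsPE. Their adjusted p-values by limma were 0.0911, 0.503 and 0.352. On that probe set both Ossl arrays lay below those of OsPE and overlapped Osoc. Osoc alone as the low line therefore rests on the bright probe set.

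IAA15 (LOC4337971) had the same low line, with 7076 and 7007.9 in OsPE, 5863.9 and 5756 in Osoc, and 7498.3 and 7269.8 in Ossl. No 2 lines overlapped. It was 1.21-fold lower in Osoc than in OsPE (adjusted p = 0.00953) and 1.27-fold higher in Ossl than in Osoc (adjusted p = 0.0016). The first of these calls ended with median centring (adjusted p = 0.0894) and without any 1 of the 4 arrays compared (adjusted p from 0.0515 without Osoc replicate 1 to 0.11 without OsPE replicate 1).

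IAA25 (LOC4344471) ran the other way, with 1439.6 and 1439.3 in Osoc against 1141.4 and 1125.2 in OsPE and 1197.4 and 1124.2 in Ossl. It was 1.27-fold higher in Osoc than in OsPE (adjusted p = 0.0288) and 1.24-fold lower in Ossl than in Osoc (adjusted p = 0.0347). Both calls were thin. The first ended without any 1 of the 4 arrays compared (adjusted p from 0.132 to 0.172), the second in each of the 6 fits that left out 1 array (0.0519 to 0.148), and with median centring they stood at 0.0819 and 0.0759.

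IAA30 (LOC4352721) read 369.3 and 393.8 in OsPE, 363.9 and 420.9 in Osoc, and 570.2 and 777.4 in Ossl. Both Ossl arrays lay above the rest, and OsPE and Osoc overlapped. The gene was 1.72-fold higher in Ossl than in OsPE (log2 0.78, SE 0.16, adjusted p = 0.00929) and 1.67-fold higher than in Osoc (log2 0.74, adjusted p = 0.00937). Without Ossl replicate 2 the adjusted p was 0.0978 and 0.0984, without OsPE replicate 1 it was 0.0762 for the first comparison, and without Osoc replicate 1 it was 0.0873 for the second. IAA31 (LOC4352722) is the next coding gene beside IAA30 in the annotation. It read 654.2 and 467.5 in OsPE, 459 and 307.5 in Osoc, and 618.1 and 384.2 in Ossl, with overlap between OsPE and Ossl. In Ossl against OsPE it differed by -0.18 (log2, SE 0.24, adjusted p = 0.749), and the contrast between these neighbours was not tested.

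IAA10 (LOC4331149), whose protein is known as a target of a rice dwarf virus protein, read 3644.8 and 4367.6 in OsPE, 3712.2 and 3960.4 in Osoc, and 4785.2 and 5288.5 in Ossl. IAA1 (LOC4323871) read 4943.9 and 5041.2 in OsPE, 4452.1 and 4807.9 in Osoc, and 5714.2 and 5993.2 in Ossl. For both genes the Ossl arrays were above those of the other lines. Against Osoc, IAA10 was 1.31-fold and IAA1 1.26-fold higher (adjusted p = 0.0117 and 0.00425), and against OsPE 1.26-fold and 1.17-fold higher (adjusted p = 0.0352 and 0.0465). Of the 6 fits that left out 1 array, the call against OsPE passed in 2 for IAA10 and in 0 for IAA1 (adjusted p from 0.0535 to 0.268 for IAA1). The calls against OsPE also ended with only the 4 arrays compared (adjusted p = 0.0543 and 0.0524), median centring (adjusted p = 0.0971 and 0.25), and no filter (0.0985 and 0.092). Against OsPE, IAA10 did not pass without Osoc replicate 1 (0.0558), Osoc replicate 2 (0.0566), OsPE replicate 1 (0.343) or Ossl replicate 2 (0.204). Quantile normalization also ended the call of IAA1 (0.0819). Against Osoc, IAA10 did not pass without Osoc replicate 1 (0.108) or Ossl replicate 2 (0.0938), and IAA1 did not pass without Osoc replicate 1 (0.0542). The other probe set of IAA1, at a mean of 57.3, differed by -0.51 in Ossl against OsPE (log2, adjusted p = 0.574), and with the mean of both probe sets the value was -0.14 (adjusted p = 0.671). In Ossl against Osoc that mean gave 0.27 and did not pass (adjusted p = 0.304), so both calls of IAA1 and its direction against OsPE rest on the bright probe set.

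IAA24 (LOC4342573) was lowest in OsPE, at 1458.3 and 1506.4, with 1908.9 and 1760.5 in Osoc and 1712 and 2067.4 in Ossl. It was 1.27-fold higher in Ossl than in OsPE at an adjusted p of 0.0495, which is at the edge of the threshold. The call ended in 5 of the 6 fits that left out 1 array, all but that without Ossl replicate 1 (adjusted p up to 0.287, without Ossl replicate 2), with offset 1 (0.0542), with the replicate block (0.0533), with median centring and with no filter (0.102 each). IAA17 (LOC4338160), the IAA gene with the highest mean signal, read 31062.7 and 29748.3 in OsPE, 28081.8 and 27438.7 in Osoc, and 29963.9 and 33297.1 in Ossl. It did not pass (adjusted p = 0.232, 0.666 and 0.0599 in Osoc against OsPE, Ossl against OsPE and Ossl against Osoc), and its probe set carries the array's mark for sequence shared with other transcripts.

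The other tested IAA genes did not pass in any comparison, and those named here, like other genes below that did not pass, were chosen after their values were seen. Their log2 differences ran from -0.67 for IAA7 in Osoc against OsPE (adjusted p = 0.438) to 0.83 for IAA20 in Ossl against OsPE (adjusted p = 0.417). IAA7 read 60.1 and 60.3 in OsPE and 34.7 and 29.1 in Osoc, so that these dim signals did not overlap. IAA23, known in rice for its part in the quiescent centre of the root, read 151.4 and 166.6 in OsPE and 89.6 and 110.3 in Osoc (log2 -0.6, adjusted p = 0.239). IAA18 read 251.3 and 272.7 in OsPE and 382.5 and 387.5 in Ossl without overlap, at an adjusted p of 0.0543. IAA14, IAA16 and IAA26 were below the 40th percentile on all 6 arrays, at signals up to 21.7, and were not tested.

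**Figure D3:**
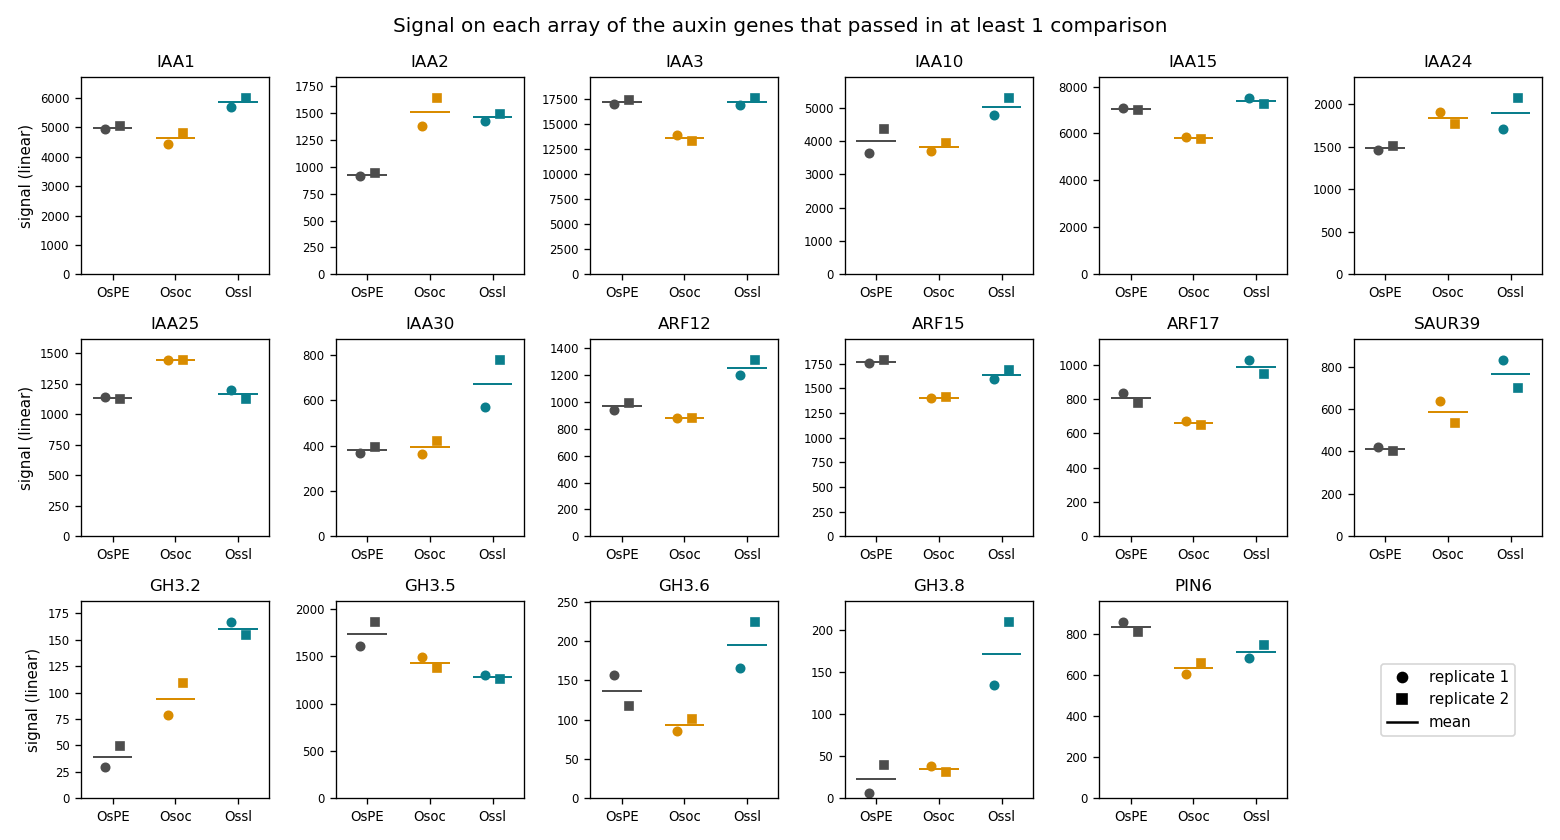
Signal on each array (vertical axes, linear and starting at 0, with a scale per gene) of the 17 auxin genes that passed in at least 1 comparison, by line. Circles are replicate 1, squares replicate 2 and lines the means. IAA2 is lowest in OsPE, IAA3 and IAA15 are lowest in Osoc, and GH3.8 is highest in Ossl.

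ARF genes encode the factors that Aux/IAA proteins restrain. ARF12 and ARF17, both known as targets of the microRNA miR167 in rice, were highest in Ossl, and ARF15, a gene of the ETTIN type, was lowest in Osoc. All 17 ARF genes were tested. In Osoc against OsPE 0 rose and 1 fell, in Ossl against OsPE 1 rose and 0 fell, and in Ossl against Osoc 2 rose and 0 fell. These calls were 5.88%, 5.88% and 11.8% of the 17. Each share was below that of genes with 1 probe set each, at 11.9%, 11.7% and 17.1%. Most of the ARF differences between Osoc and OsPE were small and below 0: 16 of 17 had values below 0, all but ARF2, where 53.6% of all probe sets did, and the same number was below 0 with quantile normalization and with median centring. Their median was -0.15 (log2), beside -0.03 over all probe sets. In Ossl against OsPE 14 of the 17 were below 0 as well, where 53% of all probe sets were. That number was 13 with quantile normalization and 14 with median centring, and the median was -0.07, beside -0.02. In Ossl against Osoc 11 of the 17 were above 0, where 50.4% of all probe sets were.

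ARF12 (LOC4337363) read 943.7 and 989.6 in OsPE, 884.5 and 884.6 in Osoc, and 1199.1 and 1310.5 in Ossl. ARF17 (LOC4341841) read 837.4 and 775.1 in OsPE, 669.4 and 648.8 in Osoc, and 1025.4 and 944.9 in Ossl. For both genes no 2 lines overlapped, and the order was Osoc, OsPE, Ossl. Against Osoc, ARF12 was 1.41-fold higher in Ossl (log2 0.5, SE 0.09, adjusted p = 0.00423) and ARF17 1.48-fold higher (log2 0.57, SE 0.1, adjusted p = 0.00331). Against OsPE, ARF12 was 1.29-fold higher in Ossl (adjusted p = 0.0288) and ARF17 did not pass (log2 0.28, adjusted p = 0.126). The call of ARF12 against OsPE ended with median centring (adjusted p = 0.0971) and without OsPE replicate 1 (0.197), OsPE replicate 2 (0.112) or Ossl replicate 2 (0.159).

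ARF15 (LOC9268260) read 1755.4 and 1785.5 in OsPE, 1402.8 and 1413.5 in Osoc, and 1594.5 and 1684 in Ossl. Its Osoc arrays lay below the others, and it was 1.25-fold lower in Osoc than in OsPE (log2 -0.33, SE 0.08, adjusted p = 0.0232). That call ended without any 1 of the 4 arrays compared (adjusted p from 0.109 to 0.162) and with median centring (0.103). ARF2 (LOC4325895), also listed as OsETTIN2, read 485.2 and 428.3 in OsPE, 546.3 and 550.8 in Osoc, and 389 and 452.3 in Ossl. It did not pass (log2 0.26 in Osoc against OsPE, adjusted p = 0.326).

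ARF4 (LOC4326957), the ARF gene with the highest mean signal, read 6300.9 and 6674.7 in OsPE, 5898.2 and 5824.7 in Osoc, and 6190.3 and 6294.8 in Ossl. Its brightest probe set did not pass in any comparison (adjusted p = 0.183, 0.672 and 0.404). Its other probe set read 4415.3 and 4294 in OsPE, 4225.6 and 4434.2 in Osoc, and 5091.9 and 5295.2 in Ossl, and rose in Ossl by 0.25 against OsPE and by 0.26 against Osoc (log2, adjusted p = 0.0248 and 0.0159). The probe sets of ARF4 therefore gave different calls. Among the ARF genes that did not pass, ARF13 was the dimmest, at 43 and 29.9 in OsPE and 14.3 and 4.6 in Ossl (log2 -1.06, SE 0.52, adjusted p = 0.281), the latter below the 40th percentile. ARF1 read 538.4 and 428.6 in OsPE and 385.6 and 297.7 in Ossl (log2 -0.48, adjusted p = 0.113).

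SAUR39 (LOC9271092) encodes a small auxin-up RNA protein, known in rice as a negative regulator of auxin synthesis and transport. It read 418.9 and 399.9 in OsPE, 639 and 534.8 in Osoc, and 829.6 and 697 in Ossl. The 3 lines did not overlap, with OsPE lowest and Ossl highest. SAUR39 was 1.83-fold higher in Ossl than in OsPE (log2 0.87, SE 0.13, adjusted p = 0.00145) and 1.41-fold higher in Osoc than in OsPE (log2 0.5, SE 0.13, adjusted p = 0.0425). The second call ended with no filter (adjusted p = 0.0804) and without any 1 of the 4 arrays compared, from 0.0635 without Osoc replicate 2 to 0.275 without Osoc replicate 1. Ossl and Osoc differed by 0.37 (log2, adjusted p = 0.108).

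The largest fold changes among the auxin genes that passed were those of GH3 genes. GH3.2 and GH3.8, whose enzymes join auxin to amino acids, rose in Ossl, while GH3.5, also named JAR1, which joins jasmonate to isoleucine, fell. Of 9 GH3 genes 8 were tested. In Osoc against OsPE 0 passed in either direction, in Ossl against OsPE 2 rose and 1 fell, and in Ossl against Osoc 2 rose and 0 fell. These calls were 0%, 37.5% and 25% of the 8, beside 11.9%, 11.7% and 17.1% of genes with 1 probe set each. The difference from that background was not tested. By limma 3, 3 and 2 of the 8 had an unadjusted p under 0.05 in the same order of comparisons. The share of all probe sets at that limit is not given here. In Osoc against OsPE these were GH3.2, GH3.4 and GH3.5, in different directions (log2 1, -1.06 and -0.27).

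GH3.8 (LOC4343785) read 6.3 and 39.9 in OsPE, 38.3 and 31.2 in Osoc, and 133.8 and 208.6 in Ossl. The Ossl arrays were far above the others, and OsPE replicate 1 was below the 40th percentile of its array. GH3.8 was 5.2-fold higher in Ossl than in OsPE (log2 2.38, SE 0.48, adjusted p = 0.00866) and 3.62-fold higher than in Osoc (log2 1.86, SE 0.48, adjusted p = 0.0258), as ratios of signal + 16. At such low signals the fold depends on the offset, and the log2 difference from OsPE was 3.28 with offset 1 and 1.44 with offset 64. It also depended on single arrays, at 1.71 without OsPE replicate 1 and 3.04 without OsPE replicate 2. Both calls ended with no filter (adjusted p = 0.0549 and 0.101), and the call against Osoc also with offset 1 (0.0939). Against OsPE it ended without OsPE replicate 1 (0.0696) or Ossl replicate 2 (0.104), and against Osoc without any 1 of the 4 arrays compared (0.0624 to 0.2).

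GH3.2 (LOC4326893) read 29.2 and 49.2 in OsPE, 78.6 and 109.3 in Osoc, and 166.4 and 154.4 in Ossl. The order of the lines was that of SAUR39, again without overlap. GH3.2 was 3.25-fold higher in Ossl than in OsPE (log2 1.7, SE 0.33, adjusted p = 0.00699), and the value was 2.05 with offset 1 and 1.13 with offset 64. The call ended without OsPE replicate 1 (adjusted p = 0.0613) or Ossl replicate 1 (0.0521). In Osoc against OsPE the difference was 1 (log2, adjusted p = 0.0995), and in Ossl against Osoc it was 0.7 (adjusted p = 0.233).

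GH3.5 (LOC4339756) ran in the opposite order, with 1610.4 and 1858.5 in OsPE, 1489.6 and 1376.3 in Osoc, and 1302.6 and 1258.8 in Ossl. It was 1.35-fold lower in Ossl than in OsPE (log2 -0.43, SE 0.09, adjusted p = 0.0122), and did not pass without OsPE replicate 2 (0.163) or Ossl replicate 2 (0.0699). GH3.6 (LOC4337780) read 156.7 and 117.2 in OsPE, 85.3 and 100.6 in Osoc, and 166.1 and 223.7 in Ossl. Its Ossl arrays lay above those of Osoc, by 1.92-fold (log2 0.94, SE 0.27, adjusted p = 0.0397). That call ended with quantile normalization (0.0538), with no filter (0.0949), with the replicate block (0.0535) and in 5 of the 6 fits that left out 1 array, all but that without OsPE replicate 2 (up to 0.237, without Ossl replicate 2).

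GH3.1 was dim, at 3.9 and 30.6 in OsPE, 32.2 and 41.1 in Osoc, and 44.8 and 55 in Ossl, and did not pass (log2 1.11 in Ossl against OsPE, SE 0.52, adjusted p = 0.26). GH3.7 read between 244.9 and 290.3 on the 6 arrays. GH3.4 ranged from 14.3 to 92.1 with Osoc replicate 1 as the lowest array. GH3.11 exceeded the 40th percentile on 2 arrays, 1 of Osoc and 1 of Ossl, and GH3.9 on none.

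**Figure D4:**
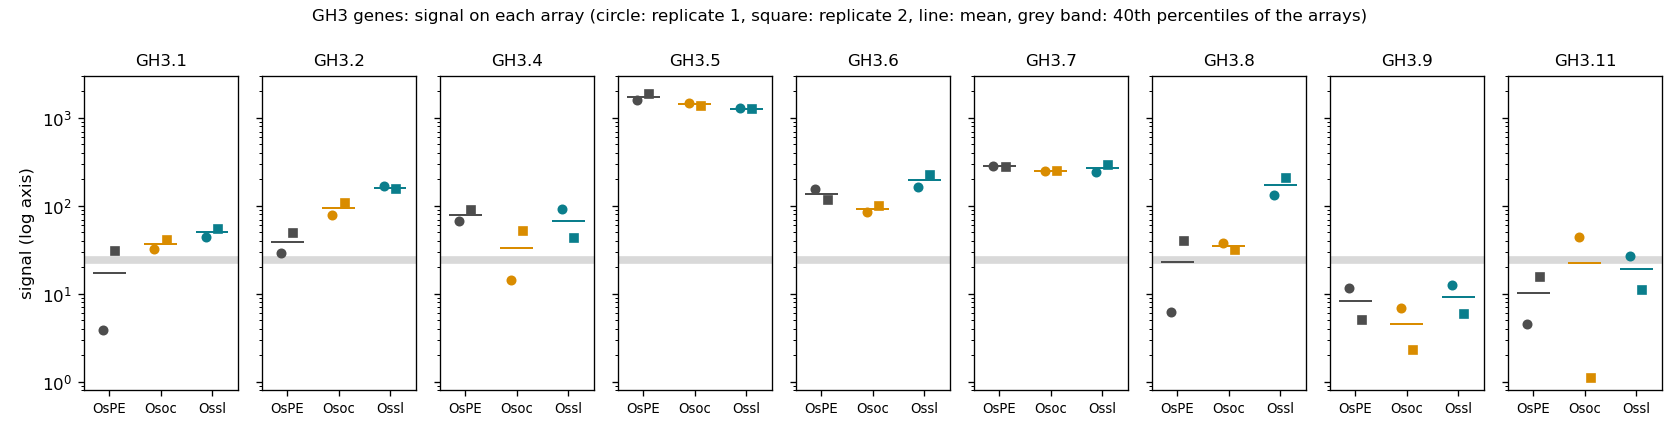
Signal on each array (vertical axis, logarithmic) of the 9 GH3 genes by line. Circles are replicate 1, squares replicate 2, lines the means, and the grey band spans the 40th percentiles of the arrays, 22.5 to 26. The Ossl arrays are highest for GH3.8, at 133.8 and 208.6, and lowest for GH3.5, at 1302.6 and 1258.8.

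Of the 5 PIN transporter genes only PIN6 and PIN3A had signals high enough to be tested. PIN6 (LOC4324368), a PIN5-type gene whose Arabidopsis relatives act at the endoplasmic reticulum, read 856.2 and 809.1 in OsPE, 606.3 and 658.2 in Osoc, and 680.3 and 744.4 in Ossl. OsPE lay above both other lines, and PIN6 was 1.31-fold lower in Osoc than in OsPE (log2 -0.39, SE 0.11), at an adjusted p of 0.0496 that is close to the threshold. Its F test over the 3 lines did not pass (adjusted p = 0.0708). The call ended with offset 1 (0.0512), robust weights (0.0521), the replicate block (0.0548), no filter (0.0716), quantile normalization (0.088), median centring (0.13) and without any 1 of the 4 arrays compared (0.113 to 0.28).

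PIN3A (LOC4326565), known in rice for its part in polar auxin transport and drought tolerance, read 50.9 and 61.2 in OsPE, 33 and 42 in Osoc, and 65.3 and 84.2 in Ossl. The lines did not overlap, but no comparison passed (adjusted p = 0.616, 0.705 and 0.263). Its dimmer probe set read 10 and 20.1 in OsPE, 23.3 and 53.3 in Osoc, and 66.6 and 49.2 in Ossl, and in Ossl against OsPE differed by 1.26 (log2, adjusted p = 0.161). PIN2, a carrier of root gravitropism, PIN5C and PIN9 each exceeded the 40th percentile on 1 array, Ossl replicate 1 in each case, at 26.2, 28 and 30.8. On the other 5 arrays their signals reached at most 9.3, 21 and 14.4.

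YUCCA1 (LOC9269185), which encodes a flavin monooxygenase of auxin synthesis, read 150.6 and 67.9 in OsPE, 63.8 and 112.2 in Osoc, and 79.7 and 66.1 in Ossl. The lines overlapped and no comparison passed (adjusted p = 0.827, 0.625 and 0.837). Its probe set is marked as partly shared with other transcripts, as are those of IAA23 and GH3.11.

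Of the 59 genes 12 had more than 1 probe set. Their 15 dimmer probe sets included 9 that were tested, and of these only that of ARF4 passed.

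Genes were also sorted by the line that stood apart from both others. Ossl was higher than both for ARF12, GH3.8, IAA1, IAA10 and IAA30, which are 5 of 52 (9.62%), beside 2.32% of all probe sets and 4.1% of genes with 1 probe set each. Without the variance trend that count was 0, beside 0.28% of all probe sets. With the trend it was 2 (3.85%) with median centring (GH3.8 and IAA30), beside 1.61% of all probe sets. It was also 2 (3.85%) with no filter (ARF12 and IAA30), beside 1.15%. The count was lower in every fit that left out 1 array, and so was the share of all probe sets. No gene kept this pattern in all of these fits, each of which leaves 1 line with a single array. Ossl was lower than both for 0 of the 52, beside 1.83%. Osoc was lower than both for IAA3 and IAA15 (3.85%, beside 1.82%) and higher than both for IAA25 (1.92%, beside 1.69%). OsPE was lower than both for IAA2 and SAUR39 (3.85%, beside 1.1%), and higher than both for 0, beside 1.01%. These percentages of all probe sets include dim ones, in which fewer calls were made.

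Of the other auxin genes looked up by name, 18 were found and 16 tested. Those found act in synthesis, conjugate release, oxidation, co-repression, polarity, gravitropism and root formation. Genes of the TIR1 receptors, of influx carriers and of ABCB pumps were not matched and are not analysed here. In Osoc against OsPE 0 of the 16 passed by limma, with a smallest adjusted p of 0.0631. In Ossl against OsPE and Ossl against Osoc 1 rose each and 0 fell. Beside these, in the same order, 7.46%, 7.92% and 11.2% of all probe sets passed. Of genes with 1 probe set each, 11.9%, 11.7% and 17.1% passed. At an unadjusted p under 0.05 limma gave 5, 7 and 4 of the 16 in that order. The share of all probe sets at that limit is not given here. ASA2 is a subunit of the anthranilate synthase that leads to tryptophan. The array marks its probe set for sequence shared with other transcripts. ASA2 read 366.2 and 373.8 in OsPE, 442 and 477.1 in Osoc, and 630.7 and 529.4 in Ossl. Its lines did not overlap, and it was 1.54-fold higher in Ossl than in OsPE (adjusted p = 0.0137), though not without OsPE replicate 1 (0.0901), OsPE replicate 2 (0.0759) or Ossl replicate 1 (0.101). DAO, a dioxygenase that oxidises auxin, read 887.6 and 1031.2 in OsPE, 931.9 and 692.9 in Osoc, and 1490.6 and 1192.9 in Ossl. The Ossl arrays were above the rest, and DAO was 1.65-fold higher in Ossl than in Osoc (adjusted p = 0.00687), though not without Osoc replicate 2 (0.0847) or Ossl replicate 1 (0.0741).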

How the data were processed

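Total RNA of 6 seedling samples was measured on the Affymetrix rice array, with 2 arrays for each of 3 lines. The deposited intensity values are on a linear scale, 1 per probe set, and the submitters' processing notes name GCOS 1.2. In the deposited table the mean signal after trimming 2% at each end was 500.071 to 500.076, as the values show. Which scaling algorithm was used and whether replicates share a batch are not stated in the labels. Of 57258 probe sets that are not controls, 22436 name 1 gene, 95 several and 34727 none. Probe sets above their array's 40th percentile on at least 2 arrays were kept. The values log2(signal + 16) of all 6 arrays were fitted in limma 3.58.1 (R 4.3.3) with a variance trend, and Benjamini-Hochberg adjusted p-values over 39629 probe sets were called at 0.05. The fit has 3 residual degrees of freedom and a prior of 8.98. It was also run on data simulated from its own means and variances, which cannot test the variance trend. Folds are ratios of signal + 16. The number of arrays limits the precision. Signals of different probe sets were ranked only to choose or name the brightest or dimmest, and no test compared them. The genes named are those that passed, the brightest of each family and all PIN and YUCCA genes, plus others marked as chosen later. The members and lists were chosen with earlier results of these data known. Alternatives were other offsets, filters, scalings, variance models, probe set choice, the replicate block, and leaving out each array. Of the other pathway names, 4 were dropped because their synonyms belong to other genes.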

Additional observations from a re-analysis of the deposited data

How the results depend on the processing

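Each of the 27 calls of auxin genes was run under 16 or 17 alternatives, and 8 passed in all of them, the 6 fits without 1 array included, except without the variance trend, where 0 of the 27 passed. Without the variance trend limma called 0, 0, 0 and, by the F test, 0 auxin genes. The probe sets called in all at an adjusted p under 0.05 were 28, 382, 402 and 431 (0.0707%, 0.964%, 1.01% and 1.09%). At an unadjusted p under 0.05 there were 10, 9, 15 and 14 auxin genes. The share of all probe sets at that unadjusted limit is not given here. The order is Osoc against OsPE, Ossl against OsPE, Ossl against Osoc and F test. Median centring gave 3 auxin genes in Osoc against OsPE and 6 in Ossl against OsPE, beside 2116 and 2361 probe sets in all. No filter gave 6 in Ossl against OsPE, beside 2163 probe sets in all. With the main settings 7 and 10 auxin genes and 2955 and 3138 probe sets in all passed in these 2 comparisons. The cause of these changes was not tested. Averaging the probe sets of each gene turned IAA1 in Ossl against OsPE to -0.14, since its dim probe set ran the other way, and ended its call in Ossl against Osoc (0.27, adjusted p = 0.304). Leaving out 1 array gave 2 to 8, 3 to 8, 4 to 9 and 9 to 16 auxin genes in the same order, and 1209 to 3309, 1504 to 2798, 2367 to 3790 and 3789 to 5234 probe sets in all. Replicate numbers did not pair the arrays (correlations of same-numbered deviations 0, 0.001 and 0.014). With the replicate block 7, 9, 9 and 15 auxin genes and 2958, 3132, 4423 and 5834 probe sets in all passed, with PIN6, IAA24 and GH3.6 losing a call and IAA31 gaining one in Osoc against OsPE. Signals near the 40th percentile, as for GH3.8 and ARF13, limit what folds of dim genes can show.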
